A study of Homo sapiens with 60 samples.

Results

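The genes described here form the catecholamine pathway, which makes, moves and degrades dopamine and noradrenaline. They were chosen by name: TH, DDC and DBH, the synthesis enzymes, GCH1, which supplies the cofactor of TH, SLC6A2, SLC18A1 and SLC18A2, the transporters, and MAOA, a degrading enzyme. These are 8 of the 37334 genes in the deposited table, and all 8 were among the 15263 genes tested. Genes were tested if they reached 1 CPM, the reads of a gene scaled to 1000000 assigned reads, in 3 or more libraries. SLC18A2 met this only through days 12, 15 and 18, so a difference between early and late days was built into its being tested, and TH was near 1 CPM on day 6 and mostly below it on day 9.

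The cells were SH-SY5Y, an established neuroblastoma line of human origin, here labelled as wild type and used at passage 39. Lead (Pb) was given at 0, 0.16, 1.26 and 10 µM during a published neuronal differentiation protocol, and RNA-seq libraries were made on day 6 and then every 3 days until day 18. Pb was present from day 5 on and was renewed at each medium change, every 2 to 3 days, and the cells without Pb went through the same protocol. Each of the 20 groups held 3 replicate dishes of 15 cm, which gave 60 libraries. All dishes are of 1 line at 1 passage, so p-values measure only the spread between dishes, and in bulk RNA fewer cells of a type and less RNA per cell cannot be told apart.

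Catecholamines are made from tyrosine. TH adds a hydroxyl group in the rate-limiting step and needs tetrahydrobiopterin, whose synthesis GCH1 begins, DDC removes the carboxyl group to give dopamine, and DBH turns dopamine into noradrenaline inside vesicles. The vesicular transporters SLC18A1 and SLC18A2 load monoamines into vesicles, SLC6A2 takes noradrenaline back up from outside the cell, and MAOA oxidises monoamines at the mitochondrial surface. SH-SY5Y cells descend from a tumour of the sympathoadrenal lineage, in which this pathway is a defining feature.

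Between 16594259 and 50539599 reads were assigned to genes per library, and 3 reads in 1 library corresponded to between 0.0594 and 0.181 CPM. In the labels the library names of day 18 begin with another prefix than those of days 6 to 15, so day 18 and whatever this prefix marks cannot be told apart in comparisons between days, whereas Pb and 0 µM were always compared within a day. In 2 libraries the levels of long transcripts were low. The slope of the log2 deviation from the mean of the day on log10 of exon length was -0.408 for the day 6 library of replicate 3 at 10 µM and -0.431 for the day 18 library of replicate 1 at 0 µM, against -0.173 in the next lowest library. Markers of the sympathoadrenal lineage summed to between 2572 and 6951 CPM over the 60 libraries. The most abundant of them, CHGB, had between 469.9 and 5142 CPM. By contrast, 4 defining genes of midbrain dopamine neurons (SLC6A3, LMX1A, FOXA2 and EN1) stayed under 1 CPM, with FOXA2 and EN1 at 0 reads.

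The promoter table held windows for 4 of the 8 genes, namely DDC, DBH, SLC18A2 and MAOA, in RefSeq's annotation of GRCh38.p14. In the 250 bases before the start, 3 motifs were searched on both strands, with a further one added after the sequences had been seen. TGACGTCA, the full cAMP response element, was found in 1.65% of 35116 promoter windows of the same length, GGGCGG in 42.6% and TAATTA in 4.35%. The added motif TGACG is part of TGACGTCA and was found in 21.2%. The stretches below are shown because SLC18A2 and DBH had the largest ratios of highest to lowest day among these 4 genes, 50.4 and 24.0 without Pb, and DDC because it too was higher on days 12 to 18 than on day 6, although neither of its 2 windows held any of these motifs. They run 5′ to 3′ along the gene's strand, with motif matches in capitals. They cover chr9:133636170-133636199 (plus strand) for DBH, chr10:117240864-117241073 (plus strand) for SLC18A2 and chr7:50561072-50561321 (minus strand) for DDC.

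DBH: aactcccactgaTGACGtccatgtgtcatt

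SLC18A2: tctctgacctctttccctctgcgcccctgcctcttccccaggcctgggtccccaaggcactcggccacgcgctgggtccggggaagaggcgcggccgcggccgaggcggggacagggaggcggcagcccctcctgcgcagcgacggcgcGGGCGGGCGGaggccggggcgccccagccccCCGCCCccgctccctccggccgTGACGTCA

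DDC: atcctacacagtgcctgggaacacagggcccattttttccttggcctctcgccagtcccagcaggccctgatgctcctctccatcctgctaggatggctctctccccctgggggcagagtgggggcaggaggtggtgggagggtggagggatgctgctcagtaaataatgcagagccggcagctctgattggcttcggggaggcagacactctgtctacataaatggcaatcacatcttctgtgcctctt

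In DBH the capitals mark TGACG, which began 181 bases before the RefSeq start. All 30 bases printed for DBH lie in exons of DBH in GENCODE v29, the annotation used for levels per kb, so by that annotation they are transcribed. In SLC18A2 they mark TGACGTCA, beginning 48 bases before the start, and 3 GGGCGG matches, of which 1 is on the opposite strand and reads CCGCCC, and 2 overlap each other. The MAOA window, not printed, held 4 GGGCGG matches and none of the other motifs. A match describes the letters only, and no binding was measured.

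Without Pb, 6 of the 8 genes were higher on day 12 than on day 6 (TH, DDC, DBH, GCH1, SLC18A1 and SLC18A2) and 2 were lower (SLC6A2 and MAOA), while 56.2% of all genes tested passed in that comparison. The median log2 change of the 8 genes was 1.33, against -0.107 for all genes tested. On day 9, by contrast, DDC, DBH, SLC6A2 and SLC18A1 were lower than on day 6 and none of the 8 was higher, where 5.14% of all genes passed. The share of all genes that passed was 58.3% for day 15 against day 6, where 7 of the 8 passed, and 66.8% for day 18 against day 6, where all 8 passed. Between neighbouring days it was 54.4% for day 12 against day 9 (7 of the 8), 37% for day 15 against day 12 (8 of the 8) and 33.3% for day 18 against day 15 (7 of the 8). These calls come from limma with Benjamini-Hochberg adjustment over 15263 genes and a threshold of 0.05.

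**Figure D1:**
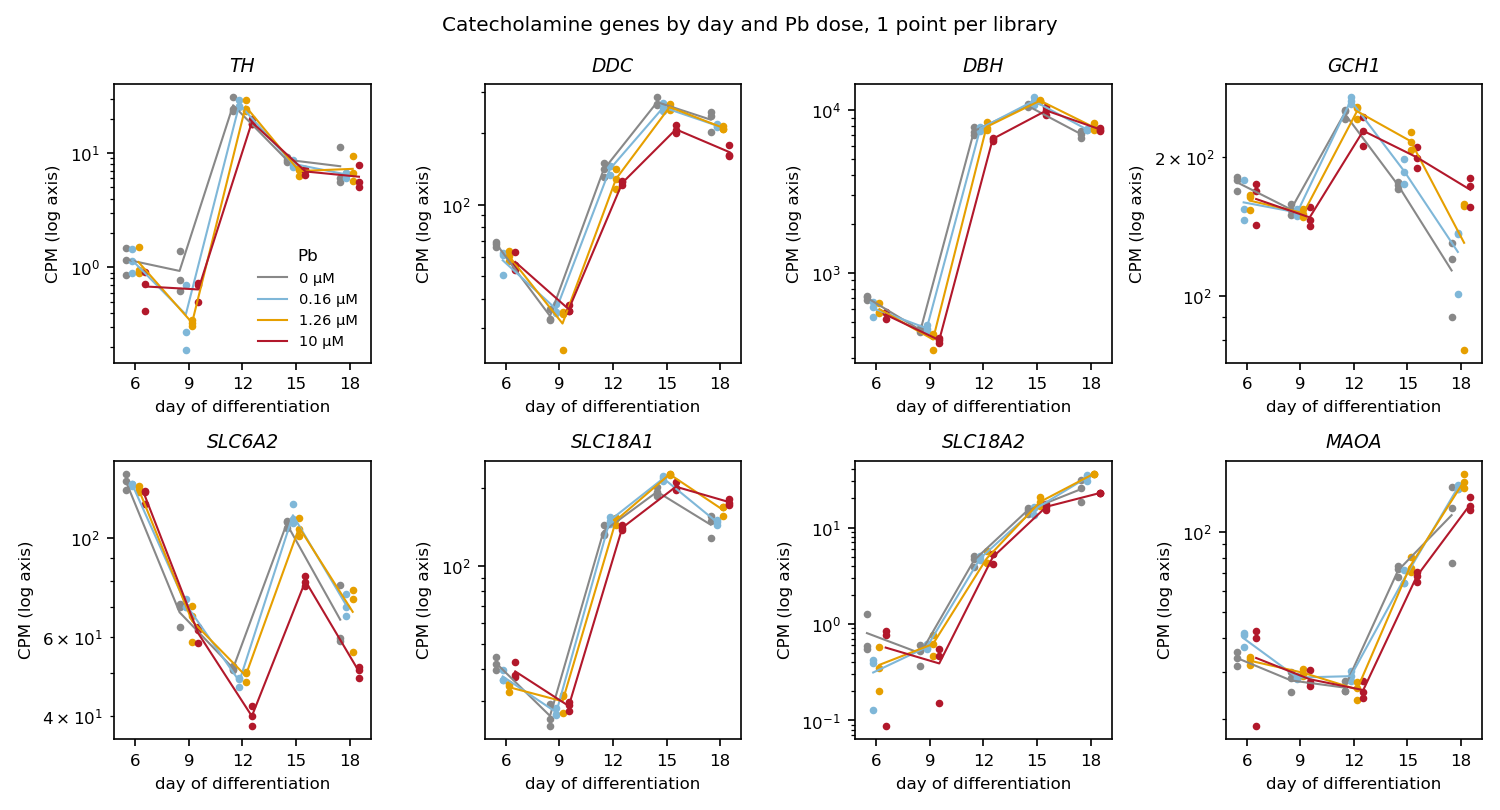
Level of each gene in CPM (log axis) in each of the 60 libraries against day of differentiation, with points and lines through group means coloured by Pb dose (0, 0.16, 1.26 and 10 µM). At all 4 doses TH and GCH1 were highest on day 12, DDC, DBH and SLC18A1 on day 15, SLC18A2 and MAOA on day 18 and SLC6A2 on day 6.

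DBH, which makes noradrenaline, lies on chromosome 9 (133636363 to 133659329, plus strand, GRCh38.p14 as are the positions below) and was the most abundant of these transcripts. Its levels in the 3 libraries without Pb were 716.2, 676.4 and 712.9 CPM on day 6, 454.5, 444.0 and 432.5 CPM on day 9, 7919, 7364 and 7076 CPM on day 12, 10918, 10589 and 10457 CPM on day 15 and 7108, 7490 and 6779 CPM on day 18. Day 15 lay above all other days and day 9 below all others, and of neighbours in that order only days 12 and 18 overlapped. On day 15 the transcript took 1.065% of all assigned reads and ranked 2 among all genes, against 0.0702% of reads and rank 132 on day 6. The log2 change was 4.07 ± 0.065 between days 12 and 9 (SE, limma with Benjamini-Hochberg adjustment, adjusted p = 2.12e-42) and -0.58 ± 0.065 between days 18 and 15 (adjusted p = 1.36e-09). The antisense gene DBH-AS1, which shares exon sequence with DBH, had between 0.810 and 9.38 CPM, and since no strand setting is given, reads of the pair cannot be told apart.

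TH, the rate-limiting enzyme (chromosome 11, 2163929 to 2171815, minus strand), had a short peak at a low level. It stood at 0.865, 1.48 and 1.17 CPM on day 6, at 1.39, 0.616 and 0.782 CPM on day 9, at 30.9, 24.3 and 23.5 CPM on day 12, at 9.20, 8.66 and 8.39 CPM on day 15 and at 6.07, 11.4 and 5.54 CPM on day 18. Day 12 stood clear of every other day, days 15 and 18 overlapped, and so did days 6 and 9, where single libraries held as few as 13 reads. The log2 change was 3.83 ± 0.17 between days 12 and 9 (limma, adjusted p = 3.51e-24) and -1.47 ± 0.17 between days 15 and 12 (adjusted p = 1.79e-09), on the log2(CPM + 1) scale, which understates changes of genes this low. Without replicate 2 of day 18, TH was also lower on day 18 than on day 15 (-0.52, adjusted p = 0.0207), a difference of -0.23 that did not pass with all libraries.

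DDC, which forms dopamine (chromosome 7, 50458442 to 50565405, minus strand), had a course like that of DBH. Its libraries gave 66.1, 69.7 and 68.3 CPM on day 6, 36.1, 32.8 and 32.6 CPM on day 9, 130.6, 140.9 and 149.6 CPM on day 12, 284.2, 262.7 and 265.2 CPM on day 15 and 236.8, 245.3 and 202.8 CPM on day 18. No 2 neighbouring days in the order 15, 18, 12, 6 and 9 overlapped. The log2 change between days 18 and 15 was -0.25 ± 0.085 (limma, adjusted p = 0.0211) and did not pass without replicate 1 of day 15 (adjusted p = 0.0849) or without replicate 3 of day 18 (adjusted p = 0.153).

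GCH1, whose product starts the synthesis of tetrahydrobiopterin (chromosome 14, 54842017 to 54902826, minus strand), peaked on day 12 and then declined. It averaged 175.9 ± 6.13 CPM on day 6 (SD, n = 3), 153.8 ± 4.53 CPM on day 9, 248.4 ± 5.64 CPM on day 12, 173.6 ± 3.11 CPM on day 15 and 113.4 ± 20.9 CPM on day 18. Days 6 and 15 overlapped, and the other neighbours in the order of levels did not. The log2 change was 0.69 ± 0.13 between days 12 and 9 (limma, adjusted p = 2.35e-05) and -0.63 ± 0.13 between days 18 and 15 (adjusted p = 0.000338).

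Among the transporters, the vesicular pair was higher, and the plasma membrane transporter lower, on each of days 12, 15 and 18 than on day 6. SLC18A1, the vesicular transporter typical of endocrine cells, had 41.9, 44.3 and 39.7 CPM on day 6, 29.4, 24.0 and 25.6 CPM on day 9, 144.2, 130.9 and 132.8 CPM on day 12, 201.0, 185.9 and 191.8 CPM on day 15 and 148.3, 155.0 and 128.5 CPM on day 18. Day 15 stood highest and day 9 lowest, and days 12 and 18 overlapped. SLC18A2, the vesicular transporter typical of neurons (chromosome 10, 117241114 to 117279430, plus strand), was lowest on days 6 and 9 and highest on day 18, with 0.592, 0.545 and 1.28 CPM on day 6, 0.370, 0.519 and 0.602 CPM on day 9, 4.75, 3.85 and 5.12 CPM on day 12, 16.1, 15.3 and 13.7 CPM on day 15 and 18.6, 30.9 and 25.6 CPM on day 18. Single libraries of day 9 held as few as 10 reads. The log2 change of SLC18A2 between days 18 and 15 was 0.67 ± 0.16 (limma, adjusted p = 0.000885), whereas that of SLC18A1 was -0.42 ± 0.063 (adjusted p = 9.50e-07).

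Without Pb, the 2 vesicular transporters drew closer in level, per kb of exon, from day 12 to day 18, whereas days 6 and 9 overlapped. On days 6 and 9 SLC18A2 held only between 10 and 35 reads per library. The ratio of SLC18A1 to SLC18A2 per kb was 75.1, 86.3 and 33.0 in the libraries of day 6, 84.5, 49.1 and 45.2 on day 9, 32.2, 36.0 and 27.5 on day 12, 13.2, 12.9 and 14.8 on day 15 and 8.46, 5.32 and 5.33 on day 18. SLC18A1 remained the more abundant in each of these libraries. PDZD8, on the opposite strand, shares exon sequence with SLC18A2 and had between 35.3 and 65.5 CPM, and reads of the pair in the shared part cannot be told apart without strand.

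SLC6A2, the noradrenaline transporter (chromosome 16, 55655988 to 55706192, plus strand), was highest at the start. Its levels were 139.2, 127.8 and 133.9 CPM on day 6, 71.3, 63.2 and 70.2 CPM on day 9, 50.9, 51.9 and 50.7 CPM on day 12, 105.0, 108.5 and 109.2 CPM on day 15 and 59.9, 58.9 and 78.3 CPM on day 18. Day 12, its lowest, was the day on which TH was highest. Days 9 and 18 overlapped, and the other neighbours in the order 6, 15, 9, 18 and 12 did not. The log2 change was -1.37 ± 0.078 between days 12 and 6 (limma, adjusted p = 2.53e-20), 1.06 ± 0.078 between days 15 and 12 (adjusted p = 1.53e-15) and -0.71 ± 0.078 between days 18 and 15 (adjusted p = 5.68e-10).

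MAOA, the degrading enzyme (chromosome X, 43655006 to 43746817, plus strand), was higher on the last 2 days than on the first 3. Its libraries gave 33.9, 35.6 and 31.7 CPM on day 6, 30.1, 28.3 and 25.2 CPM on day 9, 25.5, 25.4 and 27.7 CPM on day 12, 74.5, 72.4 and 68.0 CPM on day 15 and 76.1, 122.2 and 146.9 CPM on day 18. The lowest value of day 18 belongs to replicate 1, the library low in long transcripts, and MAOA has the most exon bases of the 8 genes, 5528. GCH1, which has the fewest, 2951, was also lowest in replicate 1 of day 18 without Pb (89.95 CPM). Whether exon length plays a part in these values was not tested. The log2 change between days 15 and 12 was 1.42 ± 0.15 (limma, adjusted p = 1.35e-10). The lower level on day 12 than on day 6 (-0.35 ± 0.15, adjusted p = 0.0438) did not pass when any 1 of 5 of the 6 libraries was left out (replicates 1 and 2 of day 6 and replicates 1, 2 and 3 of day 12) or after rescaling by median ratios (-0.24, adjusted p = 0.16).

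**Figure D2:**
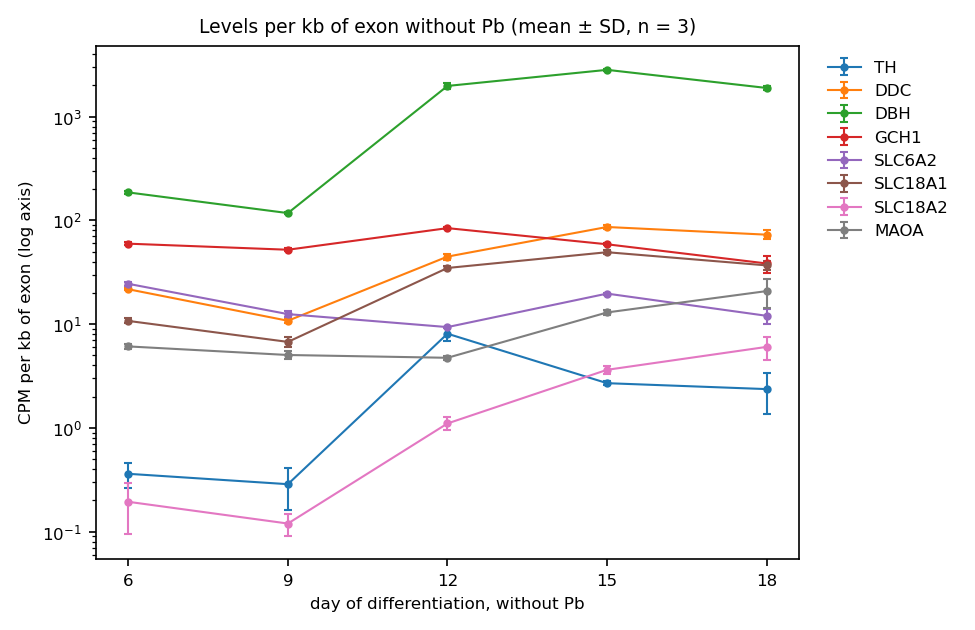
Level per kb of exon (CPM per kb, log axis) of the 8 genes without Pb against day of differentiation, as mean ± SD of 3 libraries. DBH was highest on every day, and TH and SLC18A2 were the lowest on days 6 and 9.

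Per kb of exon, DBH averaged 185.9 CPM per kb on day 6 and 2822 CPM per kb on day 15. On day 6 the order below DBH was GCH1 (59.6), SLC6A2 (24.5), DDC (21.7), SLC18A1 (10.7), MAOA (6.10), TH (0.361) and SLC18A2 (0.194 CPM per kb). On day 15 it was DDC (86.3), GCH1 (58.8), SLC18A1 (49.3), SLC6A2 (19.7), MAOA (13.0), SLC18A2 (3.63) and TH (2.70 CPM per kb). On each of the 5 days the mean of GCH1 was above that of TH, and on day 15 TH had the lowest level per kb of the 8.

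DBH and SLC18A1 had the most alike courses among the 8 genes. Over the 20 group means of log2(CPM + 1), which share the days, their correlation was 0.995 (Pearson's r, a description without a test). Of all genes tested, those most like DBH were ADAMTSL2 (0.997), SLC18A1 (0.995) and GAREM1 (0.995), and those most like SLC18A1 were DBH (0.995), CALM2 (0.994) and TOP6BL (0.992). SLC18A2 was most like AK7 (0.995), CYP2J2 (0.993) and LRP10 (0.993), MAOA like DNM3 (0.985), SCML4 (0.984) and LRRC20 (0.982), and DDC like SELENOW (0.981), SARDH (0.981) and SOX11 (0.977). TH was most like PCYT2 (0.986), TSPAN12 (0.986) and LMNA (0.982), and GCH1 like REEP3 (0.972), EGR1 (0.966) and WSB2 (0.961). For SLC6A2 the closest genes reached lower values, with SMARCA4 at 0.884, GRM7 at 0.880 and PRRT4 at 0.879.

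When the differences of the 5 days were averaged, TH, DDC, DBH and SLC6A2 were lower and SLC18A1 was slightly higher with 10 µM Pb than at 0 µM, while GCH1, SLC18A2 and MAOA did not pass. These are 5 of 8 genes, where 15.1% of all genes tested passed. The median log2 change of the 8 genes was -0.10, against 0.00 for all genes tested. The log2 change was -0.32 ± 0.077 for TH (limma, adjusted p = 0.00249), -0.28 ± 0.035 for SLC6A2 (adjusted p = 2.13e-08), -0.23 ± 0.038 for DDC (adjusted p = 6.85e-06) and -0.14 ± 0.029 for DBH (adjusted p = 0.000306). For SLC18A1 the log2 change was 0.09 ± 0.028 (adjusted p = 0.0296), which was 0.03 without day 18 and missed the threshold without any 1 of 8 libraries. Those 8 are, at 0 µM, replicate 3 of day 6, replicate 2 of days 9, 12 and 15 and replicate 3 of day 18, and, at 10 µM, replicate 3 of days 6 and 15 and replicate 1 of day 9. The changes of GCH1 (0.10), SLC18A2 (-0.05) and MAOA (0.00) did not pass.

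**Figure D3:**
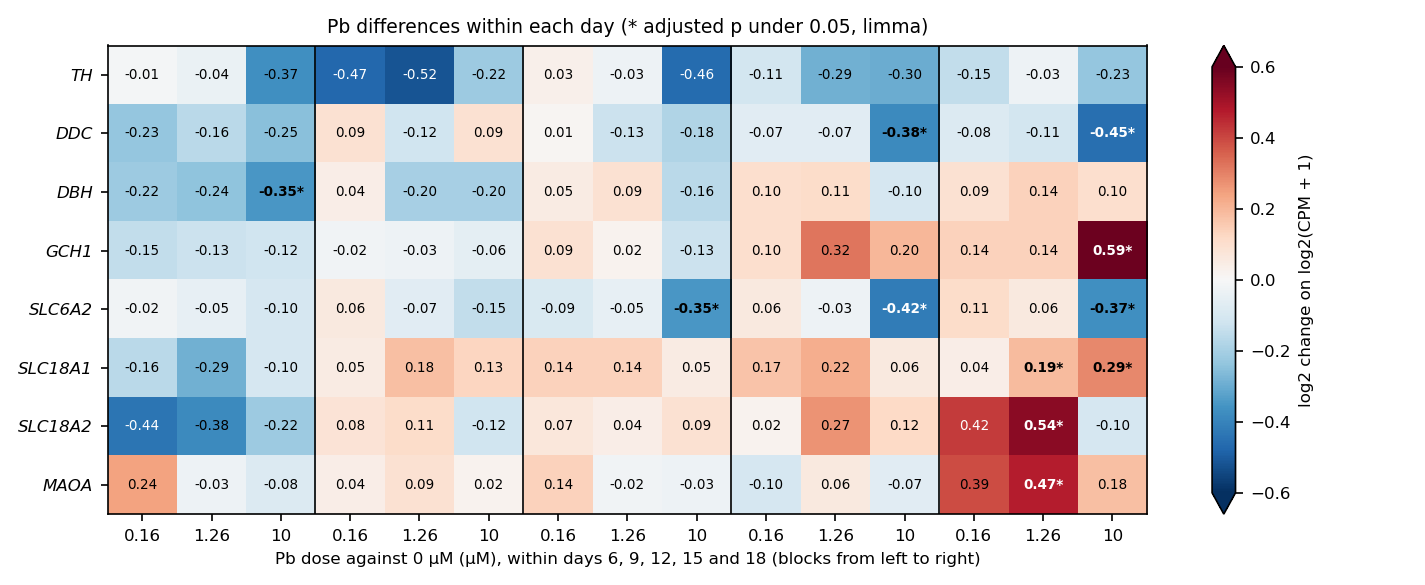
Log2 change on the log2(CPM + 1) scale for each gene (rows) at 0.16, 1.26 and 10 µM Pb against 0 µM, within days 6, 9, 12, 15 and 18 (blocks from left to right). Starred values have an adjusted p under 0.05 (limma), of which 8 are at 10 µM and 3 at 1.26 µM on day 18.

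SLC6A2 was lower with 10 µM Pb on each of the last 3 days. It had 39.99, 42.1 and 37.9 CPM with 10 µM Pb against 50.9, 51.9 and 50.7 CPM without Pb on day 12, and 82.3, 78.2 and 79.8 CPM with 10 µM Pb against 105.0, 108.5 and 109.2 CPM without Pb on day 15. On day 18 it had 50.7, 51.5 and 48.8 CPM with 10 µM Pb and 59.9, 58.9 and 78.3 CPM without Pb. On these days, and on day 6, every library with 10 µM Pb lay below every library without it. The log2 change was -0.35 ± 0.078 on day 12 (limma, adjusted p = 0.00339), -0.42 ± 0.078 on day 15 (adjusted p = 0.000216) and -0.37 ± 0.078 on day 18 (adjusted p = 0.000313). When only the libraries of these 2 groups were fitted, the change of day 18 did not pass (adjusted p = 0.0725). On day 6 (-0.10) and day 9 (-0.15) it did not pass. The share of all genes that passed at 10 µM was 0.655% on day 6, 1.41% on day 9, 5.37% on day 12, 5.68% on day 15 and 28.9% on day 18, and the number among the 8 genes was 1, 0, 1, 2 and 4 on these days. Leaving out 1 library moved the number of all genes that passed to between 20 and 1061 on day 6 (100 with all libraries; lowest without replicate 3 and highest without replicate 1 at 10 µM), 141 and 190 on day 9 (215), 438 and 656 on day 12 (819), 468 and 735 on day 15 (867) and 2769 and 5036 on day 18 (4418; without replicates 1 and 3 at 0 µM). The 3 libraries with 10 µM Pb lay apart from the 3 without Pb for 3 of the 8 genes on day 6 (13.1% of all genes), 1 on day 9 (15.1%), 4 on day 12 (26.8%), 4 on day 15 (23.8%) and 5 on day 18 (34%). On day 9, where none passed with limma or with edgeR, 2 of the 8 had an unadjusted p under 0.05, as had 1286 of all 15263 genes.

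DDC was lower with 10 µM Pb late in the course. On day 15 it had 199.8, 206.5 and 217.1 CPM with 10 µM Pb and 284.2, 262.7 and 265.2 CPM without Pb (log2 change -0.38 ± 0.085, limma, adjusted p = 0.00255). On day 18 it had 161.6, 160.1 and 177.8 CPM with 10 µM Pb and 236.8, 245.3 and 202.8 CPM without Pb (-0.45 ± 0.085, adjusted p = 6.19e-05). The groups did not overlap on either day. At 1.26 µM on day 18 the libraries gave 214.7, 209.4 and 208.4 CPM, inside the range of those without Pb.

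DBH was lower with 10 µM Pb on day 6 but not on day 18. On day 6 it had 519.2, 570.6 and 566.7 CPM with 10 µM Pb and 716.2, 676.4 and 712.9 CPM without Pb, and the log2 change of -0.35 ± 0.065 passed (limma, adjusted p = 0.00253). The lower doses also lay below the same 3 libraries without Pb on that day, with 617.2, 532.5 and 664.3 CPM at 0.16 µM and 572.8, 566.1 and 651.8 CPM at 1.26 µM, and did not pass. On day 18 it had 7562, 7509 and 7833 CPM with 10 µM Pb and 7108, 7490 and 6779 CPM without Pb, all libraries with Pb above all without, at a change of 0.10 ± 0.065 that did not pass. The difference between these 2 changes, day 18 minus day 6, was 0.45 ± 0.092 (adjusted p = 0.000439). When only the 6 libraries of day 6 were fitted, the change of day 6 did not pass (adjusted p = 0.769).

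GCH1 was higher with 10 µM Pb on day 18. It had 172.5, 180.1 and 156.0 CPM with 10 µM Pb and 89.95, 120.1 and 130.1 CPM without Pb, with no overlap, and the log2 change was 0.59 ± 0.13 (limma, adjusted p = 0.000695). Leaving out the 2 libraries low in long transcripts, 1 of them the lowest library without Pb, gave 0.43, which still passed, and over 7 other settings, this one included, the adjusted p ran from 0.000234 to 0.0201. At 1.26 µM on that day the libraries gave 76.3, 158.0 and 156.4 CPM, so that 1 lay below and 2 above all libraries without Pb, and the change of 0.14 did not pass. Without replicate 1 at 1.26 µM it was 0.49 (adjusted p = 0.0037).

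SLC18A1 was higher with 10 µM Pb on day 18 as well, with 175.0, 172.2 and 180.4 CPM against 148.3, 155.0 and 128.5 CPM without Pb (0.29 ± 0.063, limma, adjusted p = 0.000388). It did not pass when only the libraries of these 2 groups were fitted (adjusted p = 0.0562). All libraries with Pb were above all without. The means of that day were 144.0 ± 13.8 CPM at 0 µM, 147.3 ± 3.41 CPM at 0.16 µM, 164.1 ± 7.15 CPM at 1.26 µM and 175.9 ± 4.18 CPM at 10 µM (SD, n = 3 each), and the libraries at 0 and 0.16 µM overlapped. On day 15 the doses did not stand in this order, with 192.9, 217.3, 225.3 and 201.8 CPM on average at 0, 0.16, 1.26 and 10 µM, and among the 3 Pb doses only the libraries at 10 µM overlapped with those at 0 µM.

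TH had a lower mean with 10 µM Pb than without on each of the 5 days, but no single day passed. On day 12, its peak, it had 17.9, 20.1 and 17.9 CPM with 10 µM Pb and 30.9, 24.3 and 23.5 CPM without Pb, a log2 change of -0.46 ± 0.17 (limma, adjusted p = 0.112). On day 15 it had 7.29, 6.38 and 7.04 CPM with 10 µM Pb and 9.20, 8.66 and 8.39 CPM without Pb (-0.30 ± 0.17, adjusted p = 0.374). The groups did not overlap on these 2 days and overlapped on days 6, 9 and 18.

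SLC18A2 and MAOA did not pass at 10 µM on any day. On day 18 SLC18A2 had 23.0, 22.7 and 22.7 CPM with 10 µM Pb and 18.6, 30.9 and 25.6 CPM without Pb, and MAOA had 124.1, 120.7 and 134.5 CPM with 10 µM Pb and 76.1, 122.2 and 146.9 CPM without Pb. For both genes the Pb libraries lay within the wide range of those without Pb. At 1.26 µM SLC18A2 had 36.2, 35.7 and 36.1 CPM, all above 0 µM, and MAOA had 164.4, 145.8 and 152.6 CPM, overlapping with 0 µM. The log2 change at 1.26 µM was 0.54 ± 0.16 for SLC18A2 (limma, adjusted p = 0.0182), 0.47 ± 0.15 for MAOA (adjusted p = 0.033) and 0.19 ± 0.063 for SLC18A1 (adjusted p = 0.037), where 12.4% of all genes passed. That share stands for 1890 genes, which became 76 without replicate 1 and 3018 without replicate 3 at 0 µM. None of these 3 calls held without replicate 1 of day 18 without Pb, the library low in long transcripts, where the changes were 0.35, 0.20 and 0.22. The call of SLC18A1 was also lost without replicate 3 at 0 µM or replicates 1 or 2 at 1.26 µM, and that of MAOA without any of the 3 replicates at 1.26 µM.

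**Figure D4:**
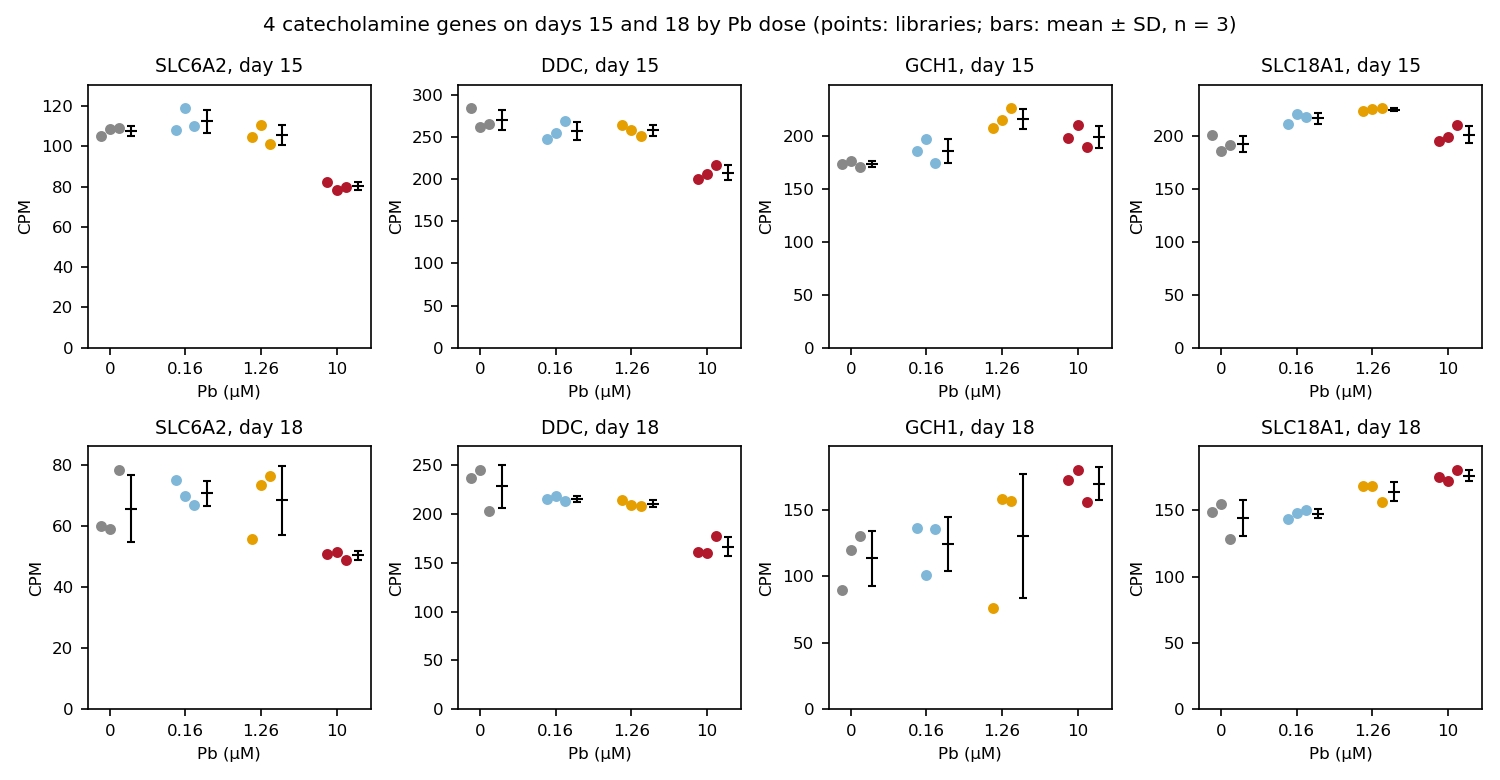
Levels in CPM of SLC6A2, DDC, GCH1 and SLC18A1 on day 15 (top) and day 18 (bottom) at 0, 0.16, 1.26 and 10 µM Pb, with 1 point per library and mean ± SD (n = 3) beside them. SLC6A2 and DDC at 10 µM lie below all other doses on both days, and GCH1 and SLC18A1 at 10 µM lie above 0 µM on day 18.

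At 0.16 µM none of the 8 genes passed on any day with limma or edgeR. The number with an unadjusted p under 0.05 was 4 on day 6, 1 each on days 9, 12 and 15 and 2 on day 18. Of all 15263 genes tested, 937, 348, 558, 632 and 3409 had such a p on these 5 days. After adjustment, the share of all genes that passed was 0% on day 6, 0.0131% on day 9, 0.0197% on day 12, 0.0131% on day 15 and 6.34% on day 18. The last share stands for 967 genes, which became 4 without replicate 1 and 2481 without replicate 3 at 0 µM. Without replicate 3 at 0 µM, 2 of the genes passed on day 18, namely SLC6A2 (0.24) and MAOA (0.59), and without replicate 2 at 0 µM, SLC18A2 passed (0.58). The 3 libraries at 0.16 µM lay apart from those at 0 µM for 5 of the genes on day 6 (12.6% of all genes), 0 on day 9 (7.46%), 3 on day 12 (13%), 1 on day 15 (9.76%) and 1 on day 18 (16.1%). At 1.26 µM none passed on days 6, 9, 12 and 15 with limma or edgeR, while 0%, 0.4%, 0.0459% and 1.26% of all genes passed. An unadjusted p under 0.05 was reached by 3, 3, 1 and 2 of the 8 genes on these days, and by 1254, 971, 974 and 1550 of all 15263 genes. Averaged over the days, none passed at 1.26 µM with limma and 2 with edgeR (TH and DDC), and 3.84% of all genes passed. An unadjusted p under 0.05 was reached by 3 of the 8 and by 2713 of all 15263 genes. Leaving out 1 library brought DDC or SLC18A1 past the threshold in 9 of the 30 cases. At 0.16 µM the mean over the days gave 0 calls with either tool, where 0.124% of all genes passed. There, 1 of the 8 and 1434 of all 15263 genes had an unadjusted p under 0.05. Libraries at 1.26 µM lay apart from those at 0 µM for 4 genes on day 6 (14.4% of all genes), 2 on day 9 (12.1%), 1 on day 12 (12.5%), 5 on day 15 (16.9%) and 3 on day 18 (20.1%).

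The slope over the dose steps from 0 to 10 µM, averaged over the days, passed for the same 5 genes as the mean at 10 µM, where 15.7% of all genes passed. It was -0.10 ± 0.024 per step for TH, -0.09 ± 0.011 for SLC6A2, -0.08 ± 0.012 for DDC, -0.05 ± 0.0092 for DBH and 0.03 ± 0.0089 for SLC18A1 on the log2 scale (limma, adjusted p from 1.61e-08 to 0.0139). On a scale linear in µM, SLC18A1 did not pass (adjusted p = 0.172), nor did it without day 18 (adjusted p = 0.524). As means over the days, the changes at 0.16, 1.26 and 10 µM were 0.02, -0.03 and -0.28 for SLC6A2 and 0.01, -0.02 and -0.14 for DBH. They were -0.14, -0.18 and -0.32 for TH, -0.06, -0.12 and -0.23 for DDC and 0.05, 0.09 and 0.09 for SLC18A1. None of these passed at 0.16 or 1.26 µM with limma. The slope uses the same 10 µM libraries and does not show a change at each step.

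The 10 µM difference varied between days for 4 genes in an F test over the 5 days, where 21.7% of all genes passed, namely DDC, DBH, GCH1 and SLC18A1 (limma, adjusted p from 0.00478 to 0.0142). The 10 µM differences of day 18 and day 6 differed for DBH (0.45), GCH1 (0.71) and SLC18A1 (0.39), where 22.6% of all genes passed. None of the 8 passed for day 9, 12 or 15 against day 6 in this respect, where 0.413%, 1.23% and 3.13% of all genes did, although SLC6A2 passed for day 15 with edgeR (-0.37, adjusted p = 0.049) and after rescaling (adjusted p = 0.0427). For SLC6A2 (-0.26, adjusted p = 0.0764) and TH (0.15, adjusted p = 0.708) the difference between these days did not pass. Without replicate 2 of day 18 at 0 µM that of SLC6A2 passed (-0.34, adjusted p = 0.0283). Without the 2 libraries low in long transcripts, that of GCH1 was 0.47 and did not pass (adjusted p = 0.14).

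The ratio of DBH to DDC per kb of exon, 2 enzymes that act in sequence, differed by dose late in the course. On day 18 it was 24.9, 25.4 and 27.8 at 0 µM, 29.3, 29.01 and 29.5 at 0.16 µM, 32.2, 30.7 and 30.1 at 1.26 µM and 38.9, 39.0 and 36.6 at 10 µM, with no overlap between any 2 doses. On day 15 it was 31.9, 33.5 and 32.7 at 0 µM, 36.3, 39.3 and 35.1 at 0.16 µM, 36.1, 36.9 and 37.8 at 1.26 µM and 38.7, 40.5 and 40.2 at 10 µM, so that 0.16 µM overlapped with 1.26 and 10 µM. On day 12, by contrast, the values with 10 µM Pb (44.8, 44.9 and 44.9) lay within those without Pb (50.4, 43.4 and 39.3). Earlier, on day 9, the values with 10 µM Pb (8.58, 8.72 and 9.28) all lay below those without Pb (10.46, 11.24 and 11.03). That was the opposite direction to days 15 and 18, and on day 6 the values at 0 and 10 µM overlapped. The ratio was chosen after its values had been seen and is given without a test.

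Other genes of the pathway moved in both directions. Their counts as a mean over the days stand against 15.1% of all genes that passed, 6.93% higher and 8.13% lower. Of 6 genes of tetrahydrobiopterin synthesis and recycling beside GCH1, 3 were higher and none lower with 10 µM Pb as a mean over the days, with a median of 0.03 against 0.00 for all genes tested. QDPR, which regenerates the cofactor, was higher (0.11 ± 0.020, limma, adjusted p = 9.30e-05), PTS, the second enzyme of the synthesis, was higher (0.17 ± 0.037, adjusted p = 0.000714), and so was PCBD2, a dehydratase of cofactor recycling (0.17 ± 0.044, adjusted p = 0.00315). By single days, 1 of the 6 was higher and 1 lower on day 15, and 2 were higher and 1 lower on day 18. Of all genes, 2.5% were higher and 3.18% lower on day 15, and 12.1% and 16.9% on day 18. Of 11 genes of breakdown and further synthesis 7 were tested and 1 passed as a mean over the days, a share near that of all genes, namely the aldo-keto reductase AKR1B1 (-0.08 ± 0.027, adjusted p = 0.0391). MAOB, the sister enzyme of MAOA, was higher with 10 µM Pb on day 18, with 58.7, 59.0 and 63.0 CPM against 41.2, 44.2 and 42.7 CPM without Pb (0.49 ± 0.091, adjusted p = 5.49e-05).

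Of 6 other monoamine transporters only SLC29A4, a low-affinity plasma membrane transporter, was expressed enough to be tested, and like SLC6A2 it was lower with 10 µM Pb (mean over the days -0.29 ± 0.051, limma, adjusted p = 2.42e-05). On day 18 it had 111.3, 113.8 and 91.0 CPM with 10 µM Pb and 160.6, 157.5 and 140.2 CPM without Pb. Among 5 genes of the amine-storing vesicle, SCG2, a granin, was higher with 10 µM Pb on day 18. CHGB, another granin, was lower as a mean over the days. Of all genes, 12.1% were higher on day 18 and 8.13% were lower as a mean over the days. SCG2 had 1421, 1414 and 1450 CPM with 10 µM Pb and 722.2, 718.6 and 689.5 CPM without Pb on day 18 (1.01 ± 0.047, adjusted p = 6.03e-22). CHGB changed by -0.12 ± 0.026 as a mean over the days (adjusted p = 0.000842). Of 14 adrenergic and dopamine receptors 6 were tested and 1 passed, again near the share of all genes, namely ADRA2A (-0.26 ± 0.080, adjusted p = 0.0174), a receptor found on noradrenergic cells themselves. It had 0.364, 0.0747 and 0.237 CPM with 10 µM Pb and 0.765, 0.545 and 1.14 CPM without Pb on day 18. The lowest of these values is under the 0.112 CPM that 3 reads were worth in its library, so ADRA2A rests on few reads there.

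**Figure D5:**
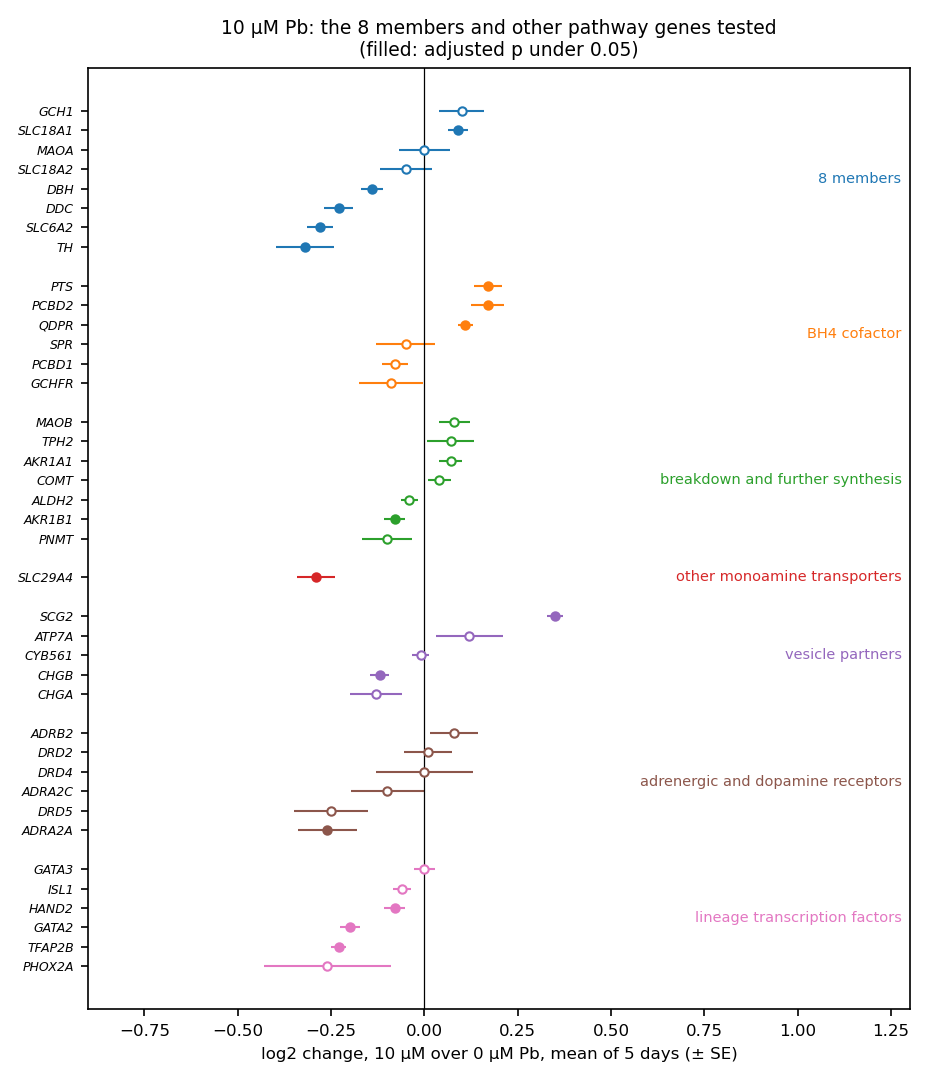
Log2 change with 10 µM Pb relative to 0 µM, averaged over the differences of the 5 days, ± SE of the model, for the 8 genes and the tested genes of the other pathway lists. Filled points have an adjusted p under 0.05 (limma). Of the 8 genes, 4 filled points lie below 0 and 1 above.

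Of 8 transcription factors of the sympathoadrenal lineage 6 were tested, and 3 were lower and none higher with 10 µM Pb as a mean over the days, with a median of -0.14 against 0.00 for all genes tested (8.13% of which were lower). On day 18 alone 5 of the 6 were lower, with a median of -0.38 against -0.05, where 16.9% of all genes were lower. As a mean over the days, TFAP2B changed by -0.23 ± 0.020 (limma, adjusted p = 2.17e-12), GATA2 by -0.20 ± 0.027 (adjusted p = 1.62e-07) and HAND2 by -0.08 ± 0.029 (adjusted p = 0.0485). GATA2 had 316.8, 333.4 and 313.6 CPM with 10 µM Pb and 424.4, 452.8 and 427.7 CPM without Pb on day 18. Without Pb 4 of these factors were lower and none higher on day 12 than on day 6, where 34.6% of all genes were lower. On day 18 against day 6, 1 was higher and 2 were lower, with a median of -0.04, where 32.1% of all genes were higher and 34.7% lower. The lower ones were GATA2 (-1.72 ± 0.061, adjusted p = 3.10e-28) and PHOX2A (-2.05 ± 0.37, adjusted p = 5.08e-06), and the higher one was ISL1 (0.22 ± 0.052, adjusted p = 0.000286).

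Markers of other cell types were read beside these results. All counts of markers below stand against the shares of all genes that passed with 10 µM Pb. These were 6.93% higher and 8.13% lower as a mean over the days, 12.1% higher and 16.9% lower on day 18, and 2.5% higher and 3.18% lower on day 15. Summed markers of the substrate-adherent, mesenchymal form of neuroblastoma cells ran from 462.3 to 482.0 CPM with 10 µM Pb and from 491.6 to 551.6 CPM without Pb on day 18, and from 164.6 to 170.7 CPM with 10 µM Pb and from 185.9 to 196.5 CPM without Pb on day 6. Of these 10 markers 8 were tested. With 10 µM Pb 6 were lower and none higher as a mean over the days, and 1 was lower on day 18, where 8.13% and 16.9% of all genes were lower. Summed sympathoadrenal markers, led by CHGB, ran from 5585 to 6033 CPM with 10 µM Pb and from 6350.1 to 6951 CPM without Pb on day 18. Of these 6 markers, 2 were lower and none higher as a mean over the days, 4 were lower on day 18, and on day 15 none was lower and 1 higher. Of 8 pan-neuronal markers 4 were higher and none lower as a mean over the days, against 2 higher and 2 lower on day 18, and their sum on day 18 ran from 5811 to 5966 CPM with 10 µM Pb and from 5857 to 6532 CPM without Pb. Of 3 cholinergic markers 2 were lower both as a mean over the days and on day 18, when they summed to between 115.6 and 140.2 CPM with 10 µM Pb and between 162.2 and 186.9 CPM without Pb. Of 3 tested Schwann and glial markers 1 was higher on day 18 and as a mean over the days, and neither of the 2 tested serotonergic markers passed. Epithelial and blood markers summed to between 90.9 and 110.8 CPM with 10 µM Pb and between 94.3 and 145.5 CPM without Pb on day 18, led by KRT5, and to at most 5.09 CPM in these groups on the earlier days. The part of these differences in the results on the catecholamine genes was not tested.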

How the data were processed

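RNA-seq libraries were grouped by day and Pb dose from the labels. The authors deposited 1 table of CPM (read counts scaled to 1000000 assigned reads per library) for 37334 genes. FastQC, MultiQC, STAR, featureCounts and the GRCh38 build are named in the submitters' processing notes; versions, annotation and strand setting are not given in the sources used here. All CPM values were whole multiples of what 1 read is worth in their library (100.0% within 0.01 read, largest deviation 0.00017), which gave depths of 16594259 to 50539599 reads. No pair of replicates agreed within sampling noise (lowest chi-square per gene 4.51).

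CPM were tested as log2(CPM + 1) with limma 3.58.1 (R 4.3.3, trended variance) for 20 group means over 60 libraries with 40 residual degrees of freedom. The 15263 genes that reached 1 CPM in 3 or more libraries were tested. P-values are two-sided with Benjamini-Hochberg adjustment over all of these and a threshold of 0.05; SE is that of the model and SD that of 3 libraries. Comparisons within a day share the libraries at 0 µM. Alternatives were a pseudocount of 0.25, no filter, median-ratio rescaling, fits of only the groups compared, a replicate block, leaving out each library or day 18, dose linear in µM, and, on the recovered reads, the quasi-likelihood test of edgeR 4.0.16. edgeR called 4072 genes for 10 µM on day 18, 2169 for the mean at 10 µM and 10100 for day 18 against day 6. Both libraries low in long transcripts were also left out together; they were known from earlier results of these data.

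Levels per kb used exon lengths of GENCODE v29, and gene positions and promoter sequences are those of RefSeq (GRCh38.p14). The test was checked on simulated data. Of the other genes, up to 3 of each list with the smallest p in a comparison, the 3 genes most alike to each of the 8, overlapping genes and markers are named; CHGA and the ratios between genes were chosen after their values were seen. Some genes on the lists are not reported here and were left out of the list counts and sums. The 8 genes and the lists were chosen with earlier results of these data known.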

Additional observations from a re-analysis of the deposited data

Results flagged for a closer look

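The difference between 10 µM Pb and 0 µM was not the same on all days for 4 of the 8 genes, where 21.7% of all genes passed. In an F test over the 5 days (limma, Benjamini-Hochberg adjustment), the adjusted p was 0.00534 for DDC, 0.00478 for DBH, 0.0119 for GCH1 and 0.0142 for SLC18A1. Between day 18 and day 6 the 10 µM difference changed by 0.45 for DBH (adjusted p = 0.000439), by 0.71 for GCH1 (adjusted p = 0.00525) and by 0.39 for SLC18A1 (adjusted p = 0.0013) on the log2 scale. Of all genes, 22.6% passed in that comparison of day 18 with day 6. For DBH the difference itself was -0.35 on day 6 and 0.10 on day 18, for GCH1 -0.12 and 0.59, and for SLC18A1 -0.10 and 0.29. The change of GCH1 was 0.47 and did not pass without the 2 libraries low in long transcripts (adjusted p = 0.14). The change of SLC18A1 did not pass when only the groups compared were fitted (adjusted p = 0.0779). The change of MAOA, 0.26 with all libraries, was -0.37 without the 2 libraries low in long transcripts (adjusted p = 0.0287), of which 1 has the lowest MAOA level of day 6 at 10 µM (18.8 CPM) and the other the lowest of day 18 without Pb (76.1 CPM).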

How the results depend on the processing

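Of 73 results on single genes that passed, 70 also passed with edgeR, 71 after rescaling, 71 without the filter, 63 with only the groups compared, 72 with the smaller pseudocount and 69 when both libraries low in long transcripts were left out; none of these reversed. Leaving out 1 library kept 822 of 846, leaving out day 18 kept 8 of 10 and a dose linear in µM 4 of 5. The replicate block changed no call (73 of 73), and the numbers did not pair the dishes: 23 of 90 same-numbered pairs of one day correlated above 0.1 (range -0.356 to 0.532), against 41 of 180 pairs with other numbers.

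Results that had not passed changed sign in these settings; the cause was not tested. Rescaling gave GCH1 0.06 (day 15 against 6) and MAOA 0.03 (day 12 against 9), and edgeR gave GCH1 0.05 (day 15 against 6) and MAOA 0.02 (10 µM, day 6), -0.00 (day 9) and 0.00 (slope). Without the 2 libraries, GCH1 at 1.26 µM on day 18 was -0.02, SLC18A2 at 10 µM on day 6 0.03, and MAOA 0.29 on day 6, -0.08 on day 18, 0.00 in the slope and -0.37 in the day 18 minus day 6 difference. Without day 18, the 10 µM mean was -0.03 for GCH1 and -0.04 for MAOA, and the GCH1 slope -0.00.

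Leaving out 1 library gave ranges across 0 for GCH1 (day 15 against 6: -0.05 to 0.0; 1.26 µM, day 18: -0.04 to 0.49), TH (10 µM, day 18: -0.4 to 0.06), SLC18A2 (10 µM, day 6: -0.36 to 0.03, day 9: -0.2 to 0.01, day 12: -0.01 to 0.18, day 18: -0.29 to 0.06, mean: -0.08 to 0.0, slope: -0.02 to 0.01) and MAOA (10 µM, day 6: -0.28 to 0.29, day 9: -0.05 to 0.07, day 12: -0.09 to 0.02, day 18: -0.08 to 0.39, mean: -0.05 to 0.08, slope: -0.02 to 0.02, day 18 minus day 6: -0.1 to 0.47).

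The number of the 8 genes that passed became 1 at 1.26 µM on day 9 (smaller pseudocount) and 1 on day 15 (without the 2 libraries). At 1.26 µM on day 18 it was 0 with only the groups compared, 0 without the 2 libraries and 1 with edgeR, and 0 to 3 without 1 library. For the 1.26 µM mean it was 1, 1 and 2 with rescaling, without the 2 libraries and with edgeR, and 0 to 2 without 1 library. With only the groups compared it was 0 on day 6 and 2 on day 18 at 10 µM. It was 1 for day 15 minus day 6 with rescaling and with edgeR, 2 in the F test without day 18, and 0 to 2 at 0.16 µM on day 18 without 1 library.

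Over all genes, fitting only the groups compared gave 522 calls against 785 (day 9 against 6), 2455 against 5079 (day 18 against 15), 1543 against 4418 (10 µM, day 18) and 0 against 1890 (1.26 µM, day 18). Without the 2 libraries it was 583 against 1890 (1.26 µM, day 18), 117 against 967 (0.16 µM, day 18) and 1290 against 3447 (day 18 minus day 6), and without day 18 it was 1497 against 2298 (10 µM mean) and 825 against 3308 (F test). Rescaling moved the median of all genes from -0.107 to -0.006 (day 12 against 6) and the share of calls that were higher from 38.4% to 51.4% there, from 38.1% to 51.4% (day 12 against 9), from 55.3% to 44.0% (day 18 against 15), from 56.4% to 45.4%, 43.9% to 28.7% and 41.6% to 56.9% (10 µM, days 12, 15 and 18), from 43.5% to 32.2% (1.26 µM mean) and from 50.6% to 62.6% (day 18 minus day 6).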

Other observations

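Genes of the amine-storing vesicle moved apart during differentiation without Pb. CHGB and SCG2, both granins, were higher on day 12 than on day 6 by log2 changes of 2.08 ± 0.057 and 1.87 ± 0.047 (limma, adjusted p = 9.45e-33 and 2.26e-34), whereas CHGA, another granin, was lower (-1.13 ± 0.16, adjusted p = 2.74e-08; named after its values were seen). On day 18 CHGB was 3.13 ± 0.057 above day 6 (adjusted p = 5.46e-40), while the copper pump ATP7A, which supplies copper to DBH, was lower (-1.30 ± 0.20, adjusted p = 2.61e-07). Of the 7 tested genes of breakdown and further synthesis, 5 were higher and none lower on day 18 than on day 6. Of all genes, 66.8% passed in that comparison, 32.1% higher and 34.7% lower. ALDH2 changed by 0.60 ± 0.052, AKR1A1 by 0.72 ± 0.070 and MAOB by 0.81 ± 0.091 (limma, adjusted p = 5.11e-14, 1.54e-12 and 1.00e-10 in this order). Among the receptors, DRD2, a dopamine autoreceptor, was higher on day 12 than on day 6 (1.01 ± 0.14, limma, adjusted p = 5.94e-08). In that comparison, which is also that of the 3 granins above, 21.6% of all genes were higher and 34.6% lower.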
